A study of Mus musculus with 24 samples.

Results

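The 34 genes described here belong to the DNA damage response and to DNA repair: checkpoint kinases, proteins that gather on broken DNA, and the enzymes of end joining, homologous recombination, single-strand break repair, nucleotide excision repair and crosslink repair, with several factors known from telomeres. They were listed by name, without regard to their signal. All 34 had at least 1 probe among the 21368 genes that could be named on the array, and where a gene had several probes the one with the highest mean over all arrays was used.

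RNA came from 4 organs (liver, heart, brain and skeletal muscle) of 6 females, 3 wild type (WT) and 3 in which Rap1 (gene symbol Terf2ip), a protein of the telomere-capping shelterin complex, carried a CRISPR/Cas9 point mutation that exchanges an isoleucine needed for binding TRF2 for an arginine. The mutants are called knockin (KI) here and RAP1 MUT in the labels, which do not state zygosity, and the study's methods describe homozygous knockin mice and WT littermates. The line had been backcrossed 4 times to C57BL/6N. By rising animal number in the labels, the KI females are given the letters A, B (both 15 months old) and C (14 months), and the WT females D, E (both 15 months) and F (14 months). Each mouse gave all 4 tissues, 1 array per tissue, so the 24 arrays form 8 groups of 3. The labels name no treatment.

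Cells meet broken DNA with the kinases ATM and ATR, which are recruited to the lesion by sensor complexes and activate the effector kinases Chk2 and Chk1. Breaks are then joined end to end by the Ku and DNA-PK machinery or copied from the sister chromatid by recombination, a route used by dividing cells, while damaged bases, nicks and bulky adducts are removed by excision repair in all cells. Shelterin keeps these same factors from treating chromosome ends as breaks. An mRNA level measures neither the activity of a repair route nor the presence of damage, since these proteins are controlled largely by modification and recruitment.

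Levels are given on a log2 scale relative to the 75th percentile of the signal on the same array, so that 0 is a signal equal to that percentile and a difference of 1 is a factor of 2. Levels of different genes come from different probes and are not compared. A probe was counted as measured on an array where the scanner software marked it well above background. This held on all 24 arrays for 26 of the 34 genes, and the exceptions were Chek1, Chek2, Brca1, Palb2, Polq, Fanca, Fancd2 and Dclre1b. In whole tissue, fewer cells of a type cannot be told apart from less RNA per cell.

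The tissue labels were borne out by defining markers: the mean level of 8 hepatocyte genes was 7.66 to 8.38 in liver, that of 8 neuronal and glial genes 4.41 to 4.74 in brain, that of 7 cardiomyocyte genes 7.69 to 8.18 in heart and that of 8 skeletal muscle fibre genes 8.91 to 9.53 in muscle. Several arrays also carried markers of another tissue. The brain array of mouse C had a hepatocyte list mean of 3.31, against -3.74 to -2.06 in the other brains. The liver array of mouse C had a muscle fibre list mean of 0.46, against -5.51 to -4.70 in the other livers. The muscle array of mouse B had a mammary epithelium list mean of -1.21, against -4.74 to -4.69 in the other muscles, and a mean of 12 proliferation genes of -0.45, against -3.18 to -1.37. Tissue also moved with the slide, since liver was on slide 1, brain on slides 1 and 2, heart on slides 2 and 3 and muscle on slide 3, and RNA was prepared with one kit and glass beads from liver and brain and with another kit and zirconia beads from heart and muscle. Liver and brain were thus prepared alike, as were heart and muscle, and in the other 4 pairs preparation and tissue cannot be told apart. The level of Terf2ip does not show the point mutation and so checks no label, and its KI minus WT difference (log2) was -0.07 in muscle, -0.13 in brain, -0.15 in heart and -0.33 in liver, none past the test (limma, adjusted p = 0.515 or more).

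The clearest feature of the 34 genes was where they were expressed. Of the 32 that could be tested over 4 tissues, 32 differed between tissues (limma moderated F-test over 24 arrays, Benjamini-Hochberg adjusted p under 0.05). The same held for 97.9% of all 16866 genes tested, so the share was near that of genes in general. Chek2, Palb2, Polq, Fanca, Fancd2 and Dclre1b entered through the tissues in which they were measured on every array, which favours a difference. The order of the tissues differed from gene to gene. Brain had the lowest mean for 17 of the 34 genes and the highest for 5, whereas heart had the lowest for 2. Liver was the highest tissue for 12 genes, muscle for 12 and heart for 5. These counts include Brca1 and Chek1, both with liver highest and brain lowest, which were too dim to be tested between tissues. The share of all genes with brain lowest was not counted. On this scale brain was also lower in the median over all genes (liver minus brain 0.14, brain minus heart -0.16, brain minus muscle -0.20).

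**Figure D1:**
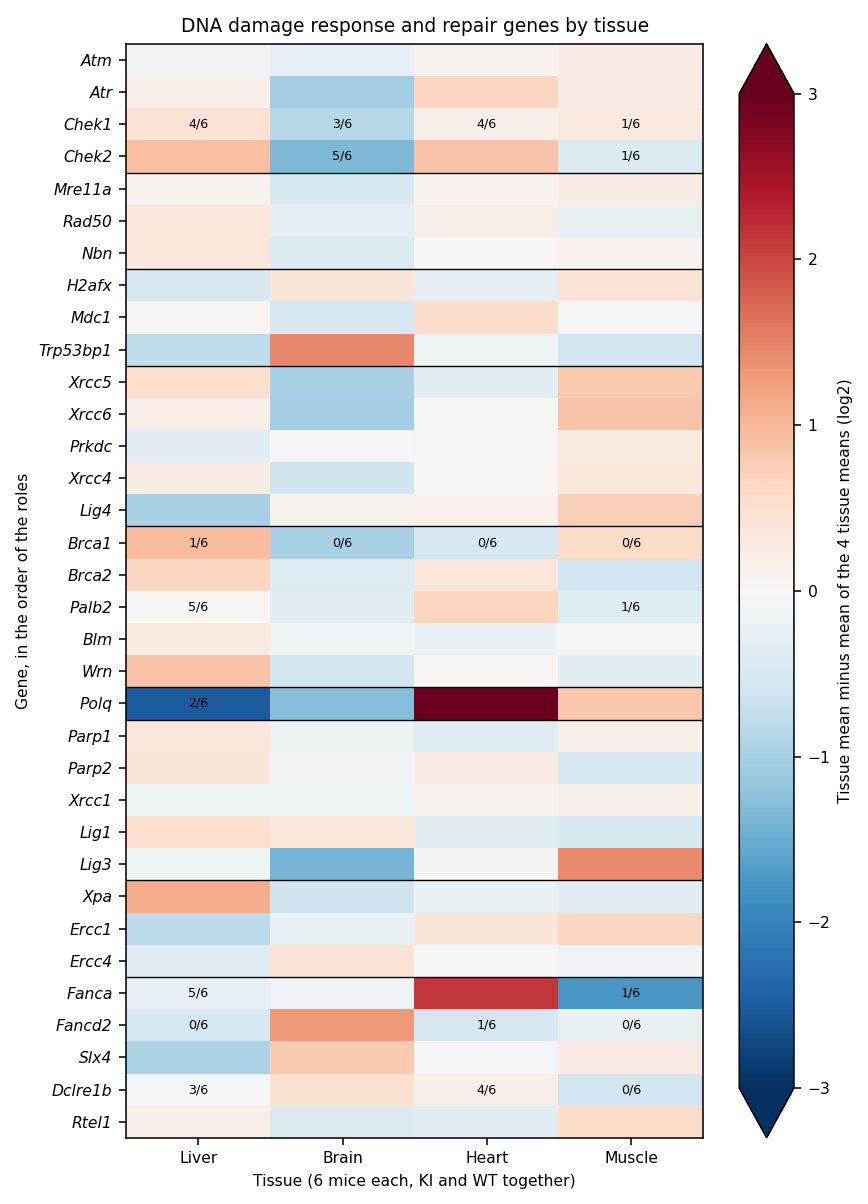
Each row is 1 gene, in the order of the roles with lines between roles, and each column 1 tissue (mean of 6 mice, both genotypes). Colour gives the tissue mean minus the mean of the 4 tissue means (log2), and a fraction gives the number of 6 arrays on which the probe was well above background where this was not all 6. Polq and Fanca in heart and Trp53bp1 in brain stand out as the darkest red cells together with Lig3 in muscle, and the brain column is blue for most of the checkpoint, MRN and Ku genes.

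Among the checkpoint kinases, Atr, the kinase that answers to single-stranded DNA and stalled forks, had its highest level in heart (1.42 to 1.98, median 1.74) and its lowest in brain (-0.21 to 0.29, median 0.03). Liver (1.14 to 1.55, median 1.22) and muscle (1.14 to 1.56, median 1.24) lay between. No brain array overlapped any array of the other tissues, and heart exceeded brain 3.21-fold (difference 1.68, SE 0.11, limma adjusted p = 8.49e-11). Liver and muscle did not differ past the threshold (difference 0.03, adjusted p = 0.793). Atm, the kinase activated at double-strand breaks, varied far less by its brighter probe. Its medians were -1.07 in brain, -0.83 in liver, -0.73 in heart and -0.59 in muscle, with a whole range over the 24 arrays of -1.60 to -0.38. Muscle exceeded brain 1.38-fold (difference 0.46, SE 0.12, adjusted p = 0.00173), and heart and muscle did not differ past the threshold (difference 0.11, SE 0.12). By this probe the muscle to brain difference lost its call with the slide as a block (limma adjusted p = 0.126) and in the deposited z-scores (adjusted p = 0.0856). By the second probe the difference was wider (brain minus muscle -0.85, limma adjusted p = 1.73e-08).

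The effector kinase Chek2 was measured on all liver and heart arrays, on 5 of 6 brain arrays and on 1 of 6 muscle arrays. Its levels were -3.61 to -2.45 in liver (median -3.41), -3.92 to -3.03 in heart (median -3.27), -6.27 to -5.04 in brain (median -5.45) and -5.33 to -4.09 in muscle (median -4.55). Every liver and heart array lay above every brain and muscle array, although the sign of heart against muscle turned after a normexp background correction. With the background treatment used here, liver exceeded brain at least 4.42-fold when arrays under their lowest measured signal were raised to it (limma on the measured values, difference 2.26, SE 0.25, adjusted p = 6.19e-08). Liver and heart did not differ past the threshold (difference 0.06, SE 0.25). Chek1, the effector of ATR and a gene of dividing cells, was dim throughout: it was well above background on 4 of 6 liver, 3 of 6 brain, 4 of 6 heart and 1 of 6 muscle arrays, with medians of -4.45, -5.54, -4.37 and -4.80 in that order, and was not tested between tissues. The 1 muscle array that measured it, of mouse A, read -2.55, against -4.98 to -4.39 in the other muscles.

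The 3 genes of the MRN complex, which senses and trims broken ends and activates ATM, were low in brain. Nbn, the nibrin subunit, read -1.62 to -0.98 in brain (median -1.29), -0.79 to -0.34 in liver (median -0.48), -0.98 to -0.65 in heart (median -0.82) and -0.98 to -0.47 in muscle (median -0.76). Liver exceeded brain 1.68-fold (difference 0.75, SE 0.12, limma adjusted p = 1.04e-05). The highest brain array met the lowest heart and muscle arrays, and no brain array reached the liver arrays. Mre11a, the nuclease, was also lowest in brain, 1.47-fold to 1.61-fold below the other tissues, which did not differ among themselves past the threshold. Rad50, the ATPase that bridges ends, was 1.51-fold higher in liver and 1.41-fold higher in heart than in brain. Muscle and brain did not differ past the threshold by this probe, the brighter of 2. They did by the second probe (brain minus muscle -0.74, limma adjusted p = 4.75e-06). In muscle a single WT array (mouse E) read 1.39 for Rad50 by the brighter probe while the other 5 read -0.34 to 0.04.

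The chromatin mediators did not move together. Trp53bp1 encodes 53BP1, which binds marked nucleosomes beside a break and favours end joining, and its level was highest in brain: 1.54 to 1.85 in brain (median 1.69), -0.73 to -0.26 in liver (median -0.52), a median of 0.08 and a highest array of 0.35 in heart, and -0.71 to 0.09 in muscle (median -0.33). The lowest brain array lay above the highest array of every other tissue. Brain exceeded liver 4.57-fold (difference 2.19, SE 0.13, limma adjusted p = 7.61e-12), heart 2.95-fold and muscle 4.00-fold. H2afx, the histone variant phosphorylated around breaks, was high in brain (2.25 to 2.76, median 2.55) and muscle (2.28 to 3.05, median 2.62) and lower in liver (1.45 to 2.0, median 1.76) and heart (1.64 to 2.20, median 1.91). The 2 high tissues did not differ past the threshold (difference 0.06, SE 0.13), nor did the 2 low ones (difference 0.19, SE 0.13), and muscle exceeded liver 1.86-fold (adjusted p = 5.20e-06, and 0.0737 with the slide as a block). Mdc1, the adaptor that reads the phosphorylated histone, was highest in heart and 2.03-fold lower in brain.

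In end joining, the genes of the Ku dimer that caps broken ends had the same order of tissues, muscle, liver, heart and brain. Xrcc6 (Ku70) read 3.43 to 4.02 in muscle (median 3.79), 3.00 to 3.19 in liver (median 3.13), 2.54 to 3.08 in heart (median 2.97) and 1.80 to 2.0 in brain (median 1.94). Muscle did not overlap any other tissue, nor did brain, and muscle exceeded brain 3.62-fold (difference 1.85, SE 0.10, limma adjusted p = 2.36e-12). Xrcc5 (Ku80) read 2.10 to 3.30 in muscle (median 2.84), 2.38 to 2.68 in liver (median 2.53), 1.63 to 1.85 in heart (median 1.71) and 0.96 to 1.17 in brain (median 1.06). Muscle exceeded brain 3.38-fold (difference 1.76, SE 0.15, adjusted p = 1.74e-09), and muscle and liver did not differ past the threshold (difference 0.29, SE 0.15, adjusted p = 0.0748). The lowest muscle array, 2.10 in mouse B, is the one with the mammary and proliferation markers. Lig4, the ligase that seals the joined ends, was highest in muscle and 3.2-fold lower in liver. Its partner Xrcc4 was lowest in brain, 1.87-fold below muscle, and Prkdc, the DNA-PK catalytic subunit, was lowest in liver, 1.51-fold below muscle.

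Recombination genes were dim or of moderate range. Brca1, the ubiquitin ligase that promotes end resection, was well above background on 1 of 24 arrays (a liver array of WT mouse D, -5.76), so that no tissue could be compared. Its medians, all near background, were -7.81 in brain, -7.45 in heart, -6.33 in muscle and -6.20 in liver. Brca2, a mediator of homologous recombination, was 2.0-fold higher in liver and 1.65-fold higher in heart than in brain. Palb2, which links BRCA1 to BRCA2, was 1.99-fold higher in heart than in brain and 1.53-fold higher than in liver, while its sign against muscle, where it was measured on 1 of 6 arrays, turned after a normexp correction. Among the RecQ helicases, Wrn was 2.67-fold higher in liver than in brain, while Blm ranged over 0.49 (log2) among tissue means, with liver 1.34-fold above brain and 1.40-fold above heart.

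Polq showed the largest difference of all 34 genes. It encodes polymerase theta, which joins resected ends through short stretches of microhomology. Its level in heart was -1.47 to 0.57 (median 0.35), in muscle -2.56 to -0.90 (median -2.42), in brain -4.75 to -3.84 (median -4.18) and in liver -6.08 to -4.74 (median -5.35). All heart, muscle and brain arrays were well above background but only 2 of 6 liver arrays. Heart exceeded brain 18.9-fold (difference 4.24, SE 0.35, limma adjusted p = 1.32e-09) and muscle 4.40-fold (difference 2.14). Against liver, where most arrays did not measure Polq, only a bound within the background treatment used here can be given. Heart was at least 31.7-fold higher when liver arrays under their lowest measured signal were raised to it (limma on the measured values, difference 5.45, adjusted p = 3.13e-11). The size depended on the treatment of background: with a normexp correction liver minus heart was -3.37, a smaller gap than that bound. The smaller brain to liver difference (1.20) changed sign with it. With the slide as a block liver minus heart was -5.27. Single arrays stood off. The heart array of KI mouse B read -1.47 and the other 5 hearts 0.07 to 0.57, while the muscle array of the same mouse read -0.90 and the other 5 muscles -2.56 to -1.80. The mean of the proliferation list was -2.02 to -1.58 in heart, -1.82 to -1.08 in liver and -3.37 to -3.04 in brain. In muscle it was -3.18 to -0.45, with mouse B the highest and WT mouse D next at -1.37. Its part in the Polq levels was not tested.

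In single-strand break repair, Lig3 had the widest range. It encodes the ligase that works with Xrcc1 and is also the ligase of mitochondria. Its brighter probe read 1.09 to 2.31 in muscle (median 1.46), -0.22 to 0.69 in heart (median 0.13), and -1.57 to -1.01 in brain (median -1.22), with liver between -0.13 and 0.24. Muscle exceeded brain 7.01-fold by this probe (difference 2.81, SE 0.18, limma adjusted p = 4.04e-11). The second Lig3 probe did not show this: its means were -2.60 in muscle, -2.75 in brain, -2.04 in heart and -1.40 in liver, so that brain and muscle did not differ past the threshold (difference -0.15, adjusted p = 0.307) and liver exceeded muscle by 1.19. Brain was the lowest tissue by both probes. Parp1 and Parp2, the sensors of nicks, ranged over factors of 1.61 and 1.82, and Lig1, the replicative ligase, was 1.96-fold higher in liver than in muscle. Xrcc1 had the smallest range of all 34 genes, 2.23 to 2.99 over all arrays, with muscle 1.23-fold above liver.

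Nucleotide excision repair showed opposite tissue orders for genes of one route. Xpa, which verifies the lesion, read 3.86 to 4.18 in liver (median 4.02), and in the other tissues 2.13 to 2.49 (brain, median 2.30), 2.53 to 2.85 (heart, median 2.71) and 2.49 to 2.70 (muscle, median 2.59). Liver lay apart from all other arrays and exceeded brain 3.27-fold (difference 1.71, SE 0.08, limma adjusted p = 2.75e-13). Ercc1 and Ercc4, the subunits of the nuclease that cuts on one side of the lesion, were both lowest in liver: Ercc1 was 2.65-fold higher in muscle and Ercc4 1.72-fold higher in brain.

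Fanca, a subunit of the Fanconi anaemia core ubiquitin ligase that answers to crosslinks, was the second gene with a marked heart level: -1.99 to -0.96 in heart (median -1.42), -4.07 to -3.26 in brain (median -3.64), -4.35 to -3.18 in liver (median -3.70) and -6.46 to -2.08 in muscle (median -6.24). Every heart array lay above every brain, liver and muscle array. Heart exceeded liver 5.14-fold (difference 2.36, SE 0.54, limma adjusted p = 5.76e-04) and brain 4.67-fold (difference 2.22, adjusted p = 9.82e-04). In muscle Fanca was well above background on 1 of 6 arrays, that of mouse B, which carries mammary and proliferation markers, and read -2.08 there against -6.46 to -4.38 on the others. With the background treatment used here, heart was therefore at least 5.79-fold higher than muscle, with muscle arrays under their lowest measured signal raised to it. This bound did not hold after a normexp correction. The measured values, which are no bound, differed by 3.86 with all arrays, by 4.56 without that array and the brain array of mouse C, and by 1.23 after a normexp correction, and each passed the test. Fancd2, the substrate of that ligase, was well above background on all 6 brain arrays (-5.13 to -3.73, median -4.31), on 1 heart array (-2.32, KI mouse A) and on no liver or muscle array. Brain was above liver by limma on the measured values (difference 1.81, SE 0.68, adjusted p = 0.0195). No minimum fold is given, since no liver array measured Fancd2 and the direction turned after a normexp correction. The call was also lost without mouse D, B or F (limma adjusted p = 0.0698, 0.0656 and 0.0796).

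Slx4, Rtel1 and Dclre1b have roles in crosslink repair and at telomeres. Slx4, the scaffold of structure-specific nucleases, was highest in brain (1.24 to 1.83, median 1.49), followed by muscle (0.80 to 1.31, median 0.94) and heart (0.32 to 0.90, median 0.69), and lowest in liver (-0.45 to 0.05, median -0.20). Brain exceeded liver 3.32-fold (difference 1.73, SE 0.12, limma adjusted p = 8.16e-11), and all 6 pairs of tissues differed. Rtel1, the helicase that opens telomere loops, read 0.90 to 1.65 in muscle (median 1.25), 0.73 to 1.04 in liver (median 0.88), 0.05 to 0.63 in heart (median 0.40) and -0.20 to 0.53 in brain (median 0.33). Muscle exceeded brain 1.97-fold (difference 0.98, SE 0.13, adjusted p = 1.65e-06), and brain and heart did not differ past the threshold (difference 0.12, SE 0.13). Dclre1b, the Apollo nuclease that TRF2 brings to telomeres, was well above background on all 6 brain arrays (-4.92 to -4.11, median -4.75), on 4 of 6 heart, 3 of 6 liver and 0 of 6 muscle arrays. Its medians were -4.90 in heart, -4.91 in liver and -5.67 in muscle. Brain against muscle passed the test (adjusted p = 0.00500, and 0.122 with the slide as a block), but no fold is given because the brain mean lay below the lowest signal measured on the muscle arrays, and the sign turned after a normexp correction.

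**Figure D2:**
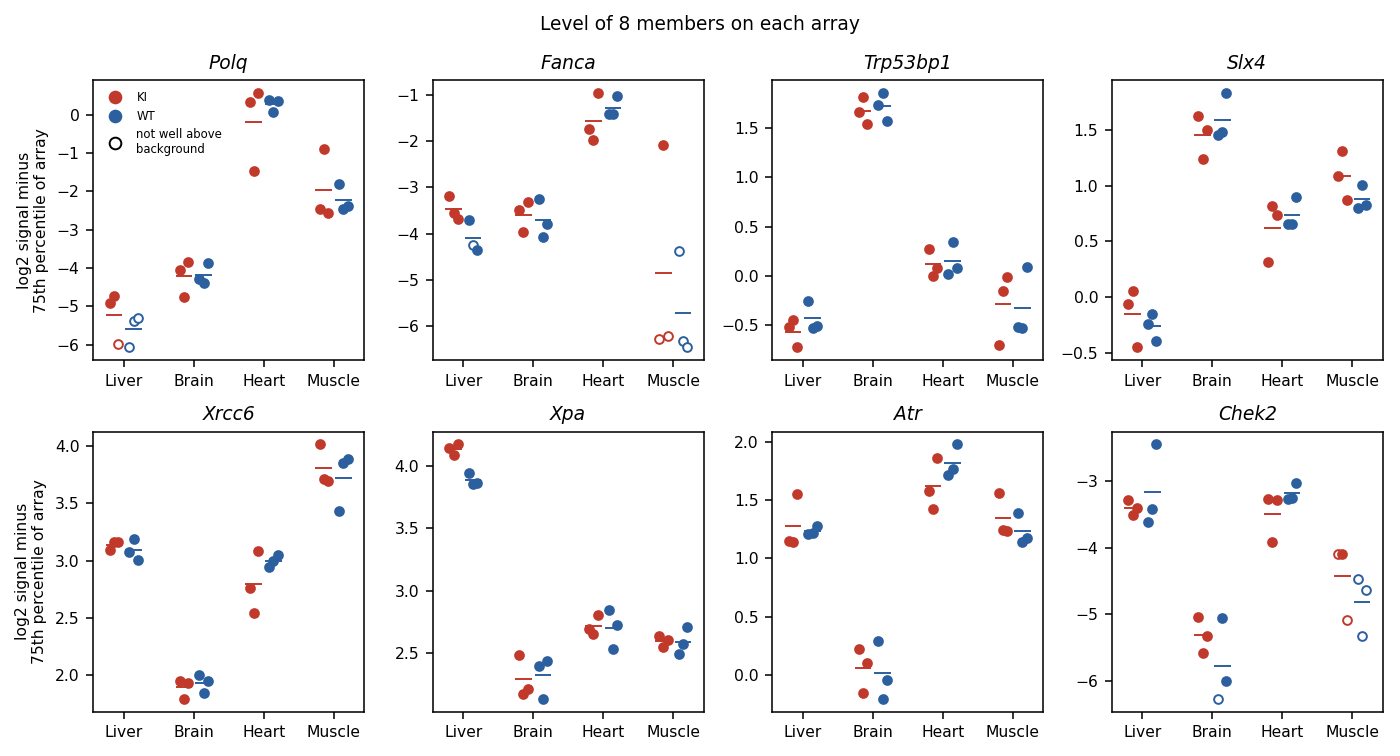
Each point is 1 array, with the level (log2 signal minus the 75th percentile of the array) on the vertical axis and tissue on the horizontal axis, KI mice in red, WT mice in blue, short bars the means of 3 mice, and open points arrays on which the probe was not well above background. For Polq all heart arrays lie above all brain and liver arrays, and the heart array of mouse B for Polq (-1.47) and its muscle array for Fanca (-2.08) stand off from their groups.

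The start regions of 4 genes with large tissue differences show what RefSeq (build GRCm38.p6) holds there, 250 bases before to 50 bases after the annotated start, in the direction of transcription. Capitals mark 3 kinds of letters searched on both strands: the E2F sites TTTCCCGC, TTTGGCGC, TTTGCCGC and TTTCGCGC, the box CCAAT, and TTTGAA, the letters of a cell cycle element. These genes were picked after their values were seen. Polq and Fanca are shown for their heart level, Chek2 for the contrast of liver and heart with brain, and Xrcc6 for the contrast of muscle with brain.

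Polq promoter, chr16:37011536-37011835, plus strand: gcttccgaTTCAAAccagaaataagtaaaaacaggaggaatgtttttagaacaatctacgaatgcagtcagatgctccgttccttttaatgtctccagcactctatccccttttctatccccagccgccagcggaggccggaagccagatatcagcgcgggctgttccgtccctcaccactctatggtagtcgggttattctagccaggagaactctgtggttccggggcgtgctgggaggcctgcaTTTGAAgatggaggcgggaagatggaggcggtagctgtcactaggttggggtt

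Fanca promoter, chr8:123318527-123318826, minus strand: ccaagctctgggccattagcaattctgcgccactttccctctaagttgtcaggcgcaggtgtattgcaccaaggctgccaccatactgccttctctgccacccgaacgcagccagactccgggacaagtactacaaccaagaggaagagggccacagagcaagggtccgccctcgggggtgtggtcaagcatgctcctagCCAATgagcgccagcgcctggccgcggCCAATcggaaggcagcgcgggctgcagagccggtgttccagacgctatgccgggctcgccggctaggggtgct

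Chek2 promoter, chr5:110839733-110840032, plus strand: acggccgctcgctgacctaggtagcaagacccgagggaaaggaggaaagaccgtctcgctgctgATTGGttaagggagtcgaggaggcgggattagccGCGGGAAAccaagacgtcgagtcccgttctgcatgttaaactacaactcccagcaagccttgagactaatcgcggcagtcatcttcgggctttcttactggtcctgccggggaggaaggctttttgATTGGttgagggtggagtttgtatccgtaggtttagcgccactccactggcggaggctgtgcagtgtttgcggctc

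Xrcc6 promoter, chr15:82016119-82016418, plus strand: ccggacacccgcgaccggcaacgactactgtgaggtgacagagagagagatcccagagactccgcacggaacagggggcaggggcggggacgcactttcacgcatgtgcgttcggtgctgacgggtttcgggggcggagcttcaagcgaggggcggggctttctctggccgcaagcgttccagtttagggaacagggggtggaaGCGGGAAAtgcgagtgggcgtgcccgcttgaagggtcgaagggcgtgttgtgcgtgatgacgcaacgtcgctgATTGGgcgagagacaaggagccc

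A start region was found for 28 of the 34 genes. An E2F site was present in 5 of the 28 (Brca2, Chek2, Lig1, Mdc1 and Xrcc6) and in 2.6% of 27025 genes with such a region. CCAAT was present in 14 of the 28 and in 41.1% of all. TTTGAA was present in 1 of the 28, Polq, which holds it at -242 and -3 relative to the start, and in 20.2% of all. The Chek2 and Xrcc6 regions share an E2F site (at -152 and -46). They also share CCAAT (at -186 and -26 in Chek2 and at 28 in Xrcc6), which the Fanca region holds too (at -50 and -23). The Fanca and Polq regions, of the genes with the highest heart levels relative to other tissues, share no searched letters. A match is a run of letters and was not tested for binding.

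In the pairs of tissues that include brain, more of the called genes were lower than higher in brain. In liver against brain, 26 of 32 genes tested passed (17 higher in liver, 9 in brain) where 85.4% of all genes passed (45.4% higher in liver, 40% in brain), and the median difference was 0.45 against 0.14 over all genes. In brain against heart, 26 of 32 passed (6 higher in brain, 20 in heart; 81.1% of all genes, 36.5% and 44.6% by direction), with a median of -0.43 against -0.16. In brain against muscle, 24 of 31 passed (8 higher in brain, 16 in muscle; 84% of all genes, 37.9% and 46.2% by direction) with a median of -0.29 against -0.20. The remaining pairs were liver against heart 20 of 30 (8 higher in liver, 12 in heart; 80% of all genes, 38.1% and 42% by direction), liver against muscle 19 of 28 (7 higher in liver, 12 in muscle; 84.2%, 40.1% and 44.1% by direction) and heart against muscle 19 of 30 (11 higher in heart, 8 in muscle; 68.9%, 33.3% and 35.6% by direction). Liver against muscle was thus nearly as uneven as liver against brain. Quantile normalization moved the median of all genes for liver against brain from 0.14 to -0.10, for brain against muscle from -0.20 to 0.08 and for heart against muscle from -0.01 to 0.11. Of the called genes it turned only Xpa and Xrcc1, in brain against muscle, where Xpa and Xrcc1 are therefore without a settled direction. Between heart and muscle the sign was turned by a normexp correction for Chek2, Palb2 and Wrn and by averaging the probes of a gene for Trp53bp1 and Wrn.

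These pairs were also read within single slides. Within slide 1 (6 livers, 2 brains) 25 genes differed between liver and brain, within slide 2 (4 brains, 4 hearts) 23 differed between brain and heart, and within slide 3 (2 hearts, 6 muscles) 12 differed between heart and muscle. With slide as a block the counts for pairs that share no slide were 13 for liver against heart, 10 for liver against muscle and 12 for brain against muscle.

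For 7 genes a second probe was present. For Trp53bp1 it was also highest in brain (-1.05, against -3.39 in liver, -2.60 in heart and -1.98 in muscle), but placed muscle above heart. For Xpa it was also highest in liver (1.89, against -0.06 in brain, 0.19 in heart and -0.07 in muscle). For Atm it kept brain lowest (-3.42) and muscle highest (-2.57), with wider differences than the brighter probe. Liver minus heart, not called by the brighter probe, was -0.55 by the second (limma adjusted p = 7.11e-06). For Rad50 it kept brain lowest (-3.12), with a muscle SD of 0.16 against 0.63 for the brighter probe. For Wrn it was well above background on 1 of 6 brain arrays and on 0 of 6 in each other tissue. For Palb2 it was so on 2 of 6 liver, 3 of 6 brain, 5 of 6 heart and 0 of 6 muscle arrays. The tissue differences of Wrn and Palb2 thus rest on the brighter probe alone.

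**Figure D3:**
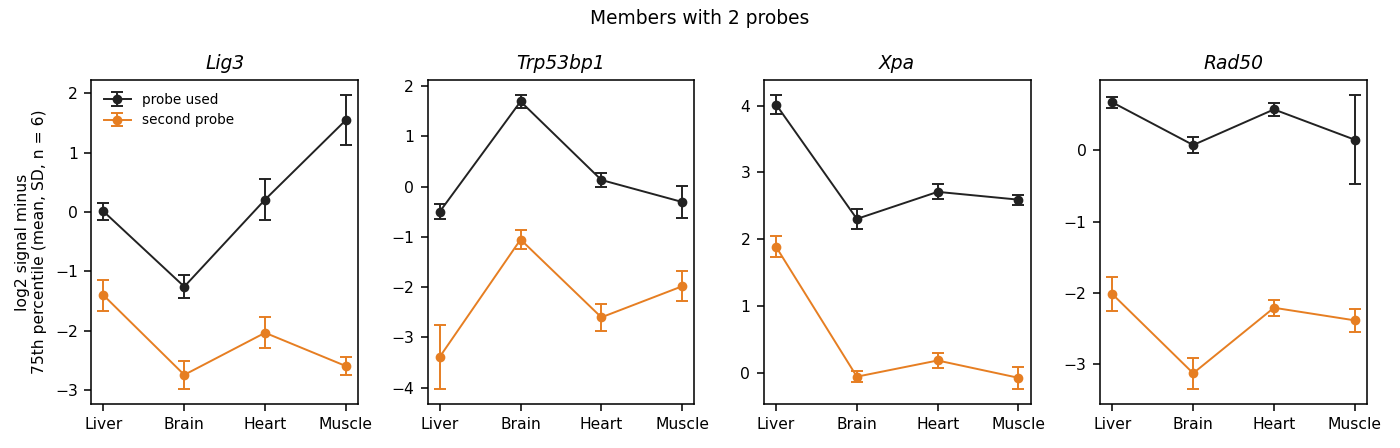
Mean level (log2 signal minus the 75th percentile of the array) with SD over 6 mice by tissue for 4 genes with 2 probes, the probe used in black and the second probe in orange. For Trp53bp1 and Xpa the same tissue is highest by both probes, for Lig3 the order differs, and for Rad50 the wide muscle bar of the probe used (SD 0.63) is absent in the second probe (SD 0.16).

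Another 80 measured genes of the same pathways, listed by route, were read for comparison. Of 75 tested over 4 tissues, 73 differed, beside 97.9% of all genes tested. Against muscle, 47 of 62 called genes were higher in muscle than in brain, 43 of 51 higher in muscle than in heart and 38 of 63 higher in muscle than in liver. Of all genes tested, 46.2% were called higher in muscle and 37.9% higher in brain. The shares were 35.6% and 33.3% for muscle and heart, and 44.1% and 40.1% for muscle and liver. The first 2 of these pairs had medians of -0.68 and -0.43 for brain or heart minus muscle, beside -0.20 and -0.01 over all genes. Between heart and muscle, 8 of these genes were higher in heart. By route, all 7 other end joining genes were higher in muscle than in brain, with Nhej1, the XLF factor, at 1.47 ± 0.14 in muscle and -0.58 ± 0.14 in brain (SD, n = 6).

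The comparison of KI with WT asked whether these genes differ when Rap1 carries the exchange at its TRF2-binding residue. None passed the test in any tissue (limma, 3 KI against 3 WT mice, Benjamini-Hochberg adjusted p under 0.05): 0 of 27 tested in muscle, 0 of 29 in liver, 0 of 31 in heart and 0 of 32 in brain, beside 0% of all genes tested in each tissue. At an unadjusted p under 0.05 there were 2 in liver (11.7% of all genes), 1 in heart (1.65%), 0 in brain (0.79%) and 0 in muscle (0.851%). Averaged over the organs of an animal, 0 of 33 genes passed at either level, beside 3.47% of all genes at the unadjusted one. The genotype effect differed between tissues for 0 of 33 by the limma interaction test, beside 1.86% of all genes at the unadjusted level. Xrcc1 came nearest in that test (adjusted p = 1.00). With 3 mice a side an exact permutation test cannot give a p below 0.10. A missing call does not show equal levels.

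**Figure D4:**
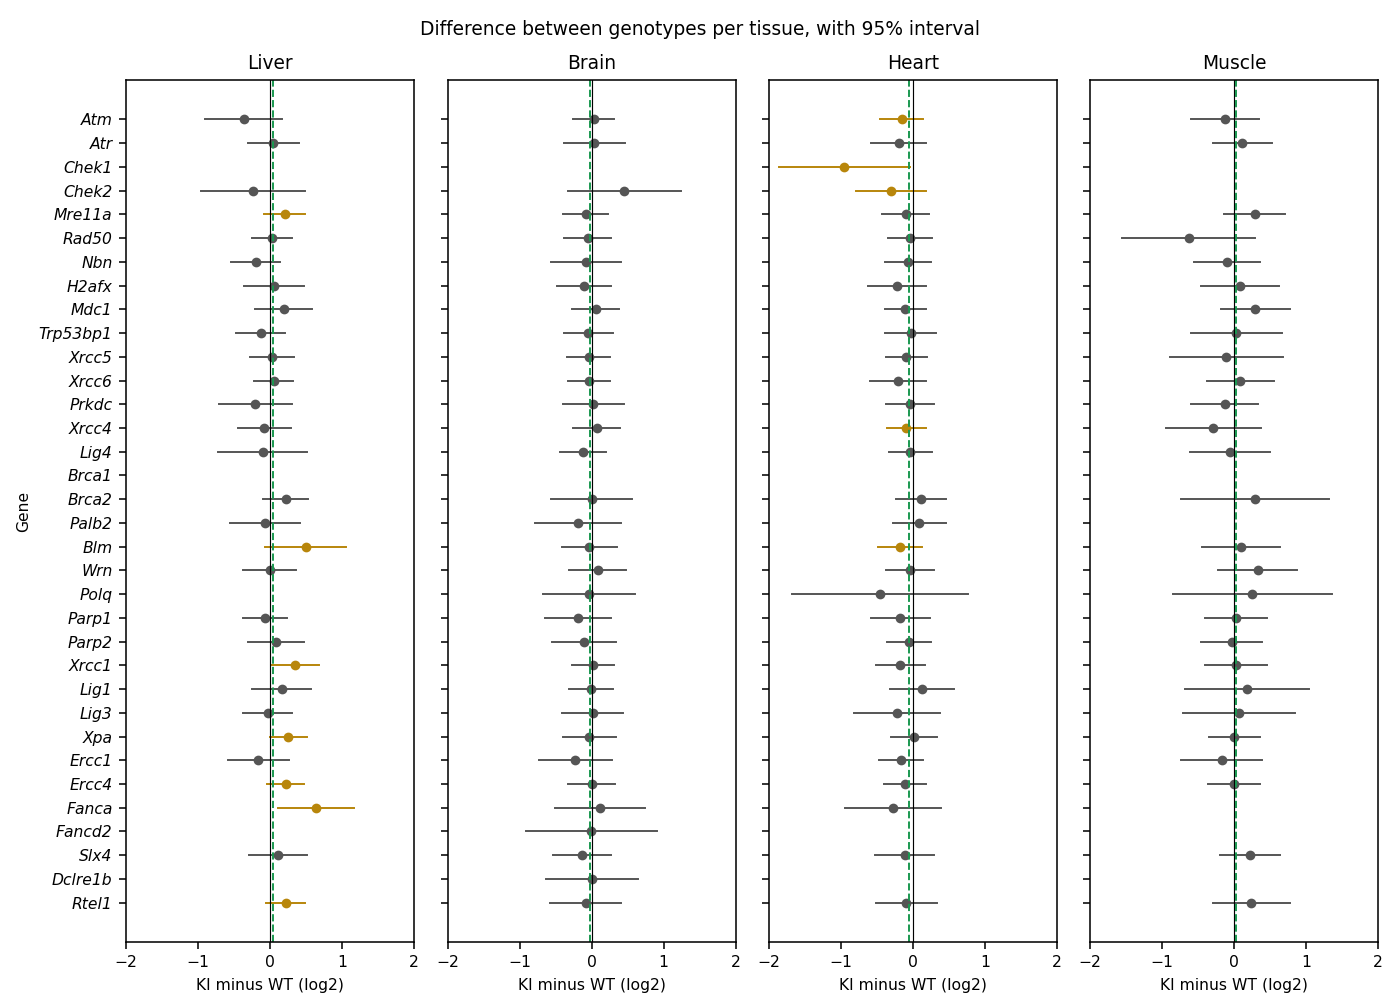
KI minus WT difference (log2, horizontal axis) for each tested gene in each tissue, with the 95% interval of the limma fit. The dashed green line is the median over all genes tested, and gold marks genes whose 3 KI and 3 WT values do not overlap, 7 in liver and 5 in heart. In heart 27 of 31 genes lie left of 0.

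In liver, the values of 7 of 29 tested genes did not overlap between genotypes, all 7 with KI above WT (Fanca, Xrcc1, Xpa, Blm, Ercc4, Rtel1 and Mre11a). Over all genes 19.7% did not overlap, 1722 with KI above WT and 1058 with KI below, so the share was near that of genes in general. Fanca entered the test through the KI arrays, all measured, while the array of WT mouse E was not well above background, and this filter favours KI above WT. It read -3.18, -3.55 and -3.69 in KI mice A, B and C and -3.72, -4.25 and -4.35 in WT mice D, E and F, with a difference of 0.63 (95% interval 0.11 to 1.16, adjusted p = 0.402 by limma). Xrcc1 read 2.87, 2.52 and 2.65 in KI and 2.33, 2.44 and 2.23 in WT, a difference of 0.35 (0.02 to 0.68, adjusted p = 0.421). Xpa read 4.15, 4.09 and 4.18 in KI and 3.95, 3.86 and 3.87 in WT, a difference of 0.25 (-0.01 to 0.51, adjusted p = 0.434). The second Xpa probe showed no such gap, with a difference of -0.003. Blm read -0.69, -1.46 and -1.40 in KI and -1.65, -1.49 and -1.89 in WT, a difference of 0.49 with mouse A the highest. The liver array of mouse A also had the highest proliferation mean, -1.08 against -1.82 to -1.33 in the other livers, and the highest leukocyte mean, 0.95. Leukocyte means were 0.15 to 0.95 in KI and -0.21 to 0.54 in WT livers, and their part in these differences was not tested. The median over the 29 genes was 0.04, as over all genes.

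In brain no gene of the 32 tested was without overlap (2.86% of all genes). The smallest p-values belonged to Chek2 (difference 0.46), Ercc1 (-0.22) and Parp1 (-0.18). Chek2 read -5.04, -5.58 and -5.32 in KI and -6.27, -5.05 and -6.00 in WT, a spread within WT wider than the difference. It entered the test through the KI arrays, all measured, with 2 of 3 WT arrays well above background, and this filter favours KI above WT.

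In heart, KI was below WT for 27 of the 31 genes tested, with a median of -0.11, beside -0.05 over all genes, of which 9224 of 14933 were lower in KI. Values did not overlap for 5 genes, all with KI below WT (Chek1, Chek2, Blm, Atm and Xrcc4), against 5.04% of all genes, 481 with KI below WT and 272 with KI above. Chek1 entered the test through the WT arrays, all measured, which favours KI below WT. It read -4.94, -4.39 and -5.75 in KI mice A, B and C and -4.34, -4.35 and -3.53 in WT mice D, E and F, a difference of -0.95 (95% interval -1.87 to -0.04, limma adjusted p = 0.971), and 2 of the 3 KI arrays were not well above background. Chek2 read -3.27, -3.92 and -3.28 in KI and -3.27, -3.26 and -3.03 in WT, a difference of -0.31 that was -0.09 without mouse B, and mice A and D were apart only beyond the second decimal. Atm read -0.74, -0.95 and -0.74 in KI and -0.61, -0.72 and -0.64 in WT, a difference of -0.15, and Blm -2.08, -1.94 and -2.01 in KI and -1.68, -1.90 and -1.92 in WT, a difference of -0.18. KI mouse B had the lowest heart value of the 6 mice for 20 of the 34 genes, and WT mouse F the highest for 15. Without mouse B the count was 22 of 31 with a median of -0.06, and over all mice left out in turn it was 22 to 28 of 31. The heart array of mouse B also had the highest leukocyte list mean, 0.59 against -0.62 to -0.20 in the other hearts, and the highest neuronal and glial mean, -0.78 against -1.95 to -1.61. The part of these in the difference was not tested.

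**Figure D5:**
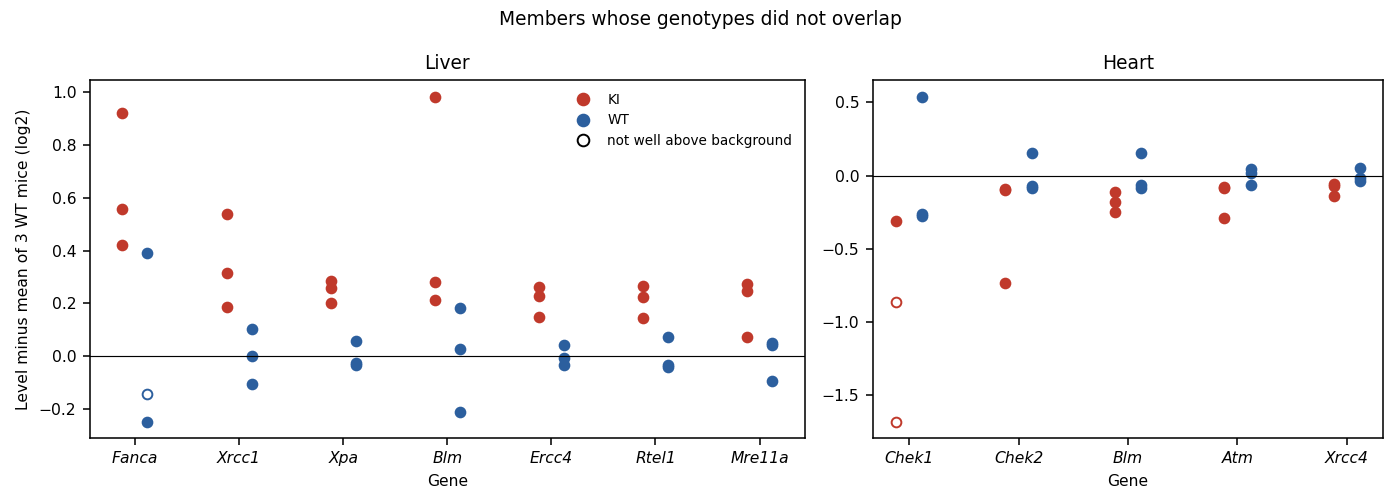
Level of each mouse minus the mean of the 3 WT mice (log2) for the genes whose genotypes did not overlap, 7 in liver and 5 in heart, KI in red, WT in blue, open points not well above background. Each KI point lies above all WT points in liver and below them in heart, and Blm appears in both panels, above WT in liver and below in heart.

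In muscle no gene of the 27 tested was without overlap (3.54% of all genes). Rad50 had a difference of -0.63 (KI -0.20, -0.34 and 0.04, WT 0.03, 1.39 and -0.02) with WT mouse E far above the others, and was -0.17 without that mouse and -0.18 by the second probe. Mre11a (KI -0.49, -0.25 and -0.68, WT -0.62, -0.82 and -0.84) and Mdc1 (KI -0.31, 0.18 and -0.07, WT -0.37, -0.59 and -0.13) overlapped between genotypes. The muscle array of KI mouse B was above all 5 other muscles for 9 of the 34 genes and below all 5 for 12. Above were Fanca, Polq, Brca2 (-1.19 against -2.79 to -1.92), Lig1 (1.48 against 0.15 to 0.76) and H2afx (3.05 against 2.28 to 2.63), and below were Xrcc4 (-0.07 against 0.66 to 1.01), Xrcc5, Lig4 and Atm. That array carries the mammary and proliferation markers given above, and their part was not tested.

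Among the 80 other repair genes, 0 passed between genotypes in liver, brain, heart or muscle (limma), and those with p under 0.05 before adjustment were 5 of 73 tested in liver, beside 11.7% of all genes, 1 of 73 in heart, beside 1.65%, 0 of 74 in brain and 0 of 72 in muscle. The smallest p-values were those of Xrcc3 in liver (difference 0.46, adjusted p = 0.368), Fanci in brain (0.46, adjusted p = 1.00) and Gen1 in heart (-0.78, adjusted p = 0.971), all by limma. Gen1 was dim in heart (mean -5.15) and well above background on 4 of 6 arrays. It thus entered the test through a single genotype measured in full, and the filter favours a higher level in that genotype.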

How the data were processed

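RNA of 24 tissue samples was hybridised to one-colour Agilent mouse arrays. The authors deposited the scanner output of each array, whose intensity values Feature Extraction 12.0.3.1 had background-subtracted and spatially detrended, and a table of z-scores (a score per feature and array), used here only as an alternative. Groups came from the labels, and 0 value columns lacked a sample. Control and outlier spots (121 to 347 per array) were left out, and the processed intensities of the spots of a probe were averaged (55681 probes, of which 50.9% were named through RefSeq accessions). The log2 of this average minus the array's 75th percentile of log2 intensity was then taken. Genes entered a genotype test if every KI array or every WT array of the tissue measured them above background, and a tissue test if every array of 1 compared tissue did. limma 3.58.1 in R 4.3.3 fitted KI against WT within each tissue, and the tissues over all 24 arrays by group means without a block, with Benjamini-Hochberg adjustment over all genes tested. The same 6 mice gave every tissue per the labels, and deviations of a mouse's arrays from the group means correlated by 0.02 on average (-0.25 to 0.31), so the mouse as a block was an alternative. In data simulated for KI against WT in liver (14004 genes), 48% of genes changed by 1 (log2) and 83% of those changed by 2 were recovered. The other alternatives were quantile normalization, a normexp correction (offset 50), the z-scores, no filter, the mean of all probes, the slide as a block or within 1 slide, the 12 WT arrays alone and each mouse left out. Levels are given in full for the 12 genes with the widest range of tissue means and for 10 listed regulators and telomere factors (18 genes in all), and between genotypes for the 3 genes of smallest p per tissue. Other genes with genotypes that did not overlap were named after their values were seen. The genes, lists and rules were chosen with earlier results of these data known. The number of arrays limits the precision. The gene of smallest p among the other repair genes in muscle is not reported here.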

Additional observations from a re-analysis of the deposited data

Results flagged for a closer look

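Among 115 tissue groups of 6 arrays in which a gene was measured, 7 held an array far from the other 5 by Dixon's criterion, and chance gives about 1 in 20 such groups. In heart, KI mouse B was the lowest for Polq (-1.47, others 0.07 to 0.57) and for Chek2 (-3.92, others -3.28 to -3.03), and WT mouse E was the lowest for Brca2 (-1.63, others -1.33 to -1.21). In liver, KI mouse C was the highest for Atr (1.55, others 1.14 to 1.27), on the array that also carries muscle fibre markers, and WT mouse F was the highest for Chek2 (-2.45, others -3.61 to -3.28). In muscle, WT mouse E was the highest for Rad50 (1.39, others -0.34 to 0.04) and KI mouse B the lowest for Xrcc4 (-0.0695, others 0.66 to 1.01).

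Blm stood out because all KI values lay above WT in liver (difference 0.49) and below WT in heart (difference -0.18). The difference of the genotype effect over the 4 tissues did not pass the test (limma moderated F-test, adjusted p = 1.00).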

How the results depend on the processing

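Of 186 repeats of the counts of called genes, 182 stayed within 1.5 times the original. The 186 include the genotype comparisons, with a count of 0 in the original and in every repeat. The exceptions came with the slide as a block, with 13 genes for liver against heart, 10 for liver against muscle and 12 for brain against muscle, and within 1 slide, with 12 for heart against muscle. With each mouse left out, the count was 0 in every genotype comparison (0 to 0), 28 to 32 over 4 tissues, 24 to 26 for liver against brain, 16 to 21 for liver against heart, 17 to 21 for liver against muscle, 24 to 26 for brain against heart, 22 to 25 for brain against muscle and 16 to 19 for heart against muscle. With the mouse as replicate block the counts were 0 between genotypes and 26 for liver against brain, and the block changed no call count.

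Of 430 repeats for single genes, 418 kept direction and call and 9 lost the call. The 430 include the named genotype differences, which had no call to lose, so that only their direction could turn or a call appear. The direction turned in 3: Fancd2 in liver minus brain was 0.15 and Dclre1b in brain minus muscle was -0.85 with a normexp correction, and Lig3 in liver minus muscle was 1.19 by its second probe. The cause was not tested. The second probe and the fit without the brain array of mouse C and the muscle array of mouse B were chosen after seeing the data. With 3 mice per genotype, changes of 1 (log2) would often be missed, and genes near background have no settled fold.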
